A study of Mus musculus with 60 samples.

Results

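The ubiquitin-specific proteases (Usp) are the largest family of deubiquitinases, the enzymes that cut ubiquitin from proteins. Genes were taken as members if the annotation of the 430A and 430B arrays gave a probe set a single symbol made of Usp and a number, with or without letters after it, and Usp18 was left out. The rule found 49 genes among the 18193 with a single symbol, and 125 of the 45037 probe sets. RNA came from untreated, uncultured spleen leukocytes of 30 female mice, with 5 mice in each of 6 groups: NOD, NON and C57BL/6 (C57) mice, each strain at the ages of 2 weeks and 4 weeks. NOD is an inbred strain that develops autoimmune (Type 1) diabetes spontaneously, and the controls that resist the disease were NON, a near relative of NOD, and C57, whose relation to it is more remote. No allele was engineered and no agent was given in any group. Mice of different ages were different animals, and the leukocytes were unfractionated.

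Ubiquitin marks proteins for destruction by the proteasome, and chains of other linkages steer DNA repair, membrane traffic and immune signalling. A Usp enzyme removes the mark and thereby spares its substrate or ends the signal. Usp14 acts on the proteasome itself, Usp1 and Usp7 act on DNA repair and p53 control, Usp22 and Usp3 on histones, Usp8 on endosomes, and Usp39 has lost catalytic residues and works in the spliceosome. Not every gene with the name is a protease: Usp6nl encodes a GTPase-activating protein for Rab proteins of the endosome.

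Signals were MAS 5.0 intensities on a linear scale, and differences were tested on log2(signal + 10), where differences of dim probe sets are understated. Only probe sets with 5 or more mice at a signal of 50 or higher were kept. This left 111 of the 125 Usp probe sets, from 47 of the 49 genes, and their mean signals ran from 36.2 to 2800 with a median of 256. The 14 probe sets that were left out had mean signals of 5.74 to 35.1, and among them were the only probe sets of Usp26 (mean signal 9.7) and Usp44 (mean signal 25.2). Usp9y lies on the Y chromosome, so its signal in female mice shows the background of its own probe set. Whether related transcripts such as Usp9x add to this signal was not tested, and some probe sets had lower signals (Usp26 at 9.7). Its probe set 1452509_at passed the filter with a mean signal of 48.4, and the group means ran from 36.2 ± 15.1 (SD, n = 5) in C57 at 2 weeks to 60.6 ± 19.8 in NOD at 2 weeks (limma adjusted p across strains = 0.381 at 2 weeks). As a cautious limit, signals of this size were not read as expression.

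B cell genes had high signals in every mouse, while the sums of T cell, erythroid and pancreatic acinar genes overlapped. Over 5 measured B cell genes the summed signal was 10600 to 31100 per mouse, and over 7 T cell genes it was 792 to 9160. Over 7 erythroid genes it was 939 to 11600, and over 7 pancreatic acinar genes it was 501 to 2010. The T cell sums of NON mice of 2 weeks (792 to 2350) reached into the acinar range. The markers Lck and Klrb1c were not analysed here. The Gapdh 3' to 5' signal ratio, which rises as RNA degrades, was 0.744 to 1.06 in NOD, 0.746 to 4 in NON and 1.02 to 2.17 in C57 at 2 weeks, and 0.763 to 1.3, 0.967 to 3.15 and 0.804 to 2.4 at 4 weeks. In 1 mouse (NOD, 4 weeks, replicate 3) the median correlation with its group was 0.739, below the 0.824 of the next lowest mouse of the 30. Results that rest on this mouse are given without it where they moved.

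The first question was which Usp genes set the strains apart. Usp39 and Usp38 were lower in NOD mice than in both control strains at both ages, and Usp37 was higher in NON mice than in the other strains at 2 weeks. These were the 3 of 111 probe sets past an adjusted p of 0.05 at 2 weeks by limma's moderated F-test across strains (adjusted over all kept probe sets), against 1.66% of all 38293 probe sets. At 4 weeks 2 of 111 passed, against 1.51% of all. At the stricter adjusted p of 0.005, 2 Usp probe sets passed at 2 weeks (0.528% of all) and 1 at 4 weeks (0.473% of all), and with so few calls nothing is read from the family's shares. At an unadjusted p under 0.05 there were 16 and 10 Usp probe sets, against 5402 and 5122 of all.

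Usp39 is a subunit of the spliceosome that is needed for the assembly of its U4/U6.U5 particle. On probe set 1437007_x_at, the 5 NOD mice of 2 weeks had signals of 75.5, 88.7, 117.5, 139.5 and 140.5. The NON mice had 739, 845, 848, 1148 and 1239, and the C57 mice had 549, 555, 698, 952 and 1189. The highest NOD mouse was thus far below the lowest control mouse. The mean was 112 ± 29.5 (SD, n = 5) in NOD against 964 ± 217 in NON and 788 ± 277 in C57, which is 7.8-fold lower than the mean of the controls (log2 difference -2.84, standard error 0.22, limma adjusted p = 9.3e-06). At 4 weeks NOD mice had 110, 115.5, 124, 126 and 242. NON mice of that age had 569, 676, 750, 1145 and 1174, and C57 mice had 388, 450, 475, 705 and 1249. NOD again did not overlap either control strain, and its mean of 144 ± 55.5 was 5.28-fold below the controls (log2 difference -2.27, standard error 0.29, limma adjusted p = 0.00128). The lowest NOD signals of both ages lay within the range of Usp9y over the mice (18.4 to 114). Both folds thus rest in part on signals near background.

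A second probe set of Usp39 gave a much smaller difference. On 1460209_at the NOD mice of 2 weeks had 220, 290.5, 299.8, 374 and 408, NON mice had 371, 409, 457, 490 and 564, and C57 mice had 359.5, 410, 421, 428 and 463. The strains overlapped on this probe set, and the means were 319 ± 74, 458 ± 74.5 and 416 ± 37.4 (log2 difference -0.46, standard error 0.16, limma adjusted p = 0.311). At 4 weeks NOD had a mean of 286 ± 35.1, while NON had 417 ± 57.2 and C57 358 ± 88.9 (adjusted p = 0.385 for a log2 difference of -0.40 with a standard error of 0.17). The gap between the probe sets was itself tested, as the log2 signal of a probe set minus that of the other probe set of its gene in the same mouse. The strain difference on 1437007_x_at was larger than on 1460209_at by 2.37 on the log2 scale at 2 weeks (standard error 0.28, limma adjusted p = 0.000914) and by 1.87 at 4 weeks (standard error 0.39, adjusted p = 0.107). The test at 2 weeks called 2 of the 97 Usp probe sets it covered, both of Usp39, where the second is the first with its sign turned, against 0.816% of the 20968 probe sets of genes with at least 2 of them. At 4 weeks it called 0 of 97, against 0.448% of all, with 10 at an unadjusted p under 0.05 (9.56% of all). Across the 30 mice, deviations from the group means on the Usp39 probe sets had a correlation of -0.55, the lowest of the 117 pairs of Usp probe sets that share a gene. The suffix _x_at marks a probe set with probes that can match unrelated transcripts, and probe sequences were not used here.

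**Figure D1:**
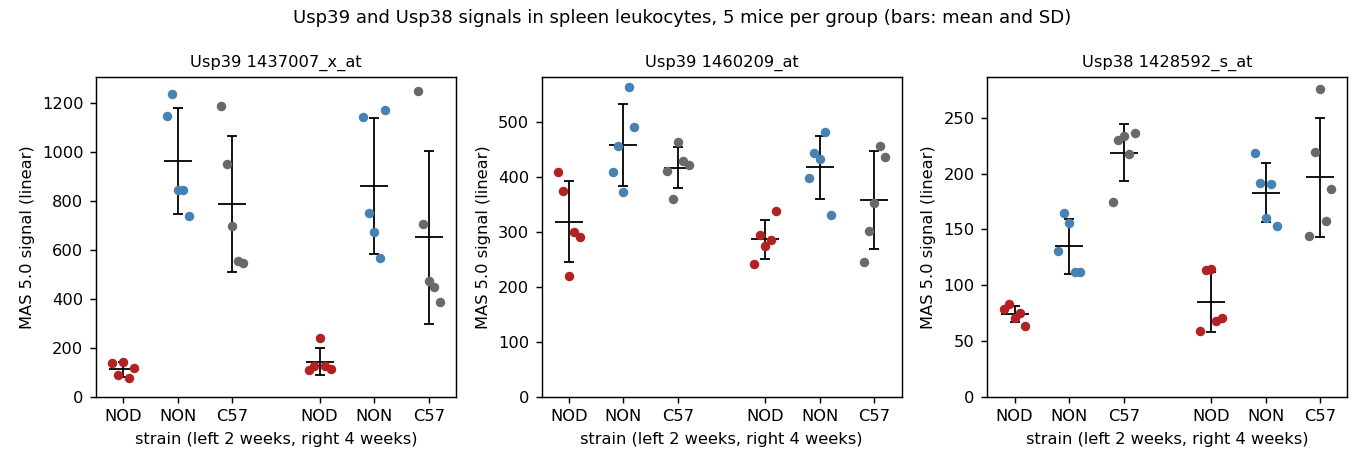
Signals of each mouse (linear MAS 5.0 scale, from 0) on both Usp39 probe sets and the Usp38 probe set, by strain and age, with points for the 5 mice and bars for the mean and SD of a group. NOD mice lie below every control mouse on Usp39 1437007_x_at (means of 112 and 144) but overlap them on 1460209_at (means of 319 and 286).

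Usp38 is a deubiquitinase that acts in innate immune signalling, and its only kept probe set was 1428592_s_at. NOD mice of 2 weeks had signals of 63.3, 70.9, 75, 78.8 and 82.9. NON mice had 112, 112, 130, 155.5 and 165, and C57 mice had 175, 217.5, 230.2, 234 and 237. Neither control group overlapped NOD, and NON lay between NOD and C57. The NOD mean of 74.2 ± 7.54 (SD, n = 5) compares with 135 ± 24.5 and 219 ± 25.6 (log2 difference -1.10, standard error 0.15, limma adjusted p = 0.00061). At 4 weeks NOD mice had 58.7, 67.9, 70.2, 113 and 114, NON mice 153, 160, 191, 192 and 219, and C57 mice 144, 158, 186, 220 and 275.5. The mean was 84.9 ± 26.7 in NOD against 183 ± 26.7 and 196 ± 52.9 (log2 difference -1.09, standard error 0.20, limma adjusted p = 0.0252). With the Gapdh ratio as a covariate the log2 difference at 4 weeks was -1.01 (adjusted p = 0.0926, with 0.000425 to 0.0926 over all alternatives). The suffix _s_at marks a probe set that can match several related transcripts, and the NOD signals of 2 weeks lay within the range of Usp9y in the same mice (41.5 to 90.5). The differences are therefore those of measured signals, and no fold is given.

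In whole leukocytes, fewer cells of a type and less RNA per cell cannot be told apart. Of the 8 marker lists, NOD sums lay outside those of both control strains in 1 list at 1 age: over 5 megakaryocyte genes at 4 weeks the sum was 1240 to 2390 in NOD, 591 to 1220 in NON and 741 to 954 in C57. At 2 weeks these sums were 1110 to 4210, 1230 to 3480 and 800 to 4660. Their part in the Usp39 and Usp38 differences was not tested. With the Gapdh ratio as a covariate, Usp39 1437007_x_at passed the test at both ages and Usp38 at 2 weeks.

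Usp37 removes ubiquitin from cyclin A and promotes entry into S phase. On probe set 1438212_at the NON mice of 2 weeks had 558, 588, 622.5, 731 and 926. NOD mice had 236, 249, 346.5, 384 and 442, and C57 mice had 284, 318, 380.2, 419.8 and 429.8. NON mice lay above all others, at a mean of 685 ± 149 against 332 ± 88.1 in NOD and 366 ± 63.6 in C57 (SD, n = 5; limma adjusted p = 0.0362). This call was lost when any 1 of 11 mice was left out (adjusted p of 0.0148 to 0.104 over all alternatives), the 4 exceptions being replicates 2 and 4 of NOD and replicate 2 of NON and of C57. At 4 weeks the strains overlapped, at NON 345 ± 132, NOD 353 ± 89.4 and C57 464 ± 178 on average (adjusted p = 0.712). The other probe set of the gene, 1434242_at, gave NOD a mean of 552 ± 73.6, NON 648 ± 52.5 and C57 668 ± 170 at 2 weeks (adjusted p = 0.694). Summed signals of 9 cycling cell genes also set NON apart at 2 weeks, at 17800 to 25700 against 9890 to 16800 in NOD and 8190 to 15700 in C57, as did the 7 T cell genes, at 792 to 2350 against 2970 to 5800 and 3590 to 7660. The part of these cells in the Usp37 difference was not tested.

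Sequence upstream of the start is shown for the members that differed between the strains or ages and have a RefSeq promoter entry, so that a reader can compare them. It is the 250 bases before the annotated start in GRCm38.p6, the C57BL/6J reference, and the sequences of NOD and NON mice were not used here. Entries were found for 38 of the 49 genes. Capitals mark matches, on either strand, to GGGCGG (GC box) or TCCCGCC (an E2F motif core), which can overlap each other. The CCAAT box and the cell cycle homology region TTTGAA were searched as well.
Usp38 promoter, chr8:81014907-81015156, minus strand: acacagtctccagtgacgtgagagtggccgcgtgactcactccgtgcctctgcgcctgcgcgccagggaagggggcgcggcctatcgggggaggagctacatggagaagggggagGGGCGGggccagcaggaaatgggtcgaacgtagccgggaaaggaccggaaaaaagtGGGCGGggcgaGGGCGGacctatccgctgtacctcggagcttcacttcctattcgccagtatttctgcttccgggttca
Usp37 promoter, chr1:74505822-74506071, minus strand: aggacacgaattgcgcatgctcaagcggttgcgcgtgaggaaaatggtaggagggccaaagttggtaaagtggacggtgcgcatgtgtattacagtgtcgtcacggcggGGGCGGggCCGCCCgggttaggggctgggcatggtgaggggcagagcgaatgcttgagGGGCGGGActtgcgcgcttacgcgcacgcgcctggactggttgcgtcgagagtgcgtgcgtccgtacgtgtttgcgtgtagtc
Usp46 promoter, chr5:74068412-74068661, minus strand: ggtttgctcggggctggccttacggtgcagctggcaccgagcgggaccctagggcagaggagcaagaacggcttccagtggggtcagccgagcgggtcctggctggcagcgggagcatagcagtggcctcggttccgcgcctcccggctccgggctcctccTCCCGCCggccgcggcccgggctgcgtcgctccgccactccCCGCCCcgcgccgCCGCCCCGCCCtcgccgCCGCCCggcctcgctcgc
Usp38 and Usp37 hold 3 GC boxes each and Usp46, which fell with age, holds 4. The E2F core is in Usp37 and Usp46 and not in Usp38, and none of the 3 windows holds CCAAT or TTTGAA. Of 27025 promoters with a symbol, 32.9% hold GGGCGG, 9.76% TCCCGCC, 34.5% CCAAT and 16.3% TTTGAA. Among the 38 Usp promoters the shares are 63.2%, 26.3%, 26.3% and 7.89%, and their median GC content is 65% against 52% over all. A match is a description of the letters and not evidence of binding.

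No other member passed the strain test. Over the 111 probe sets the log2 difference of NOD minus the mean of the controls had a median of 0.05 at 2 weeks and -0.05 at 4 weeks, beside 0.06 and 0.05 over all kept probe sets. NOD was the lower side for 50 and 64 of the 111, beside 16201 and 17194 of 38293. The difference was within 0.5 of 0 for 94 probe sets at 2 weeks and 89 at 4 weeks. It was over 1 in size for 5 and 4, and for 3 at both ages: Usp39 1437007_x_at, Usp38 1428592_s_at and, named here after its values were seen, Usp15 1442307_at. Usp15 acts in TGF-beta signalling. On this probe set NOD means were 90.8 ± 91.9 and 71.8 ± 97.7, with NON at 166 ± 24.4 and 129 ± 92.7 and C57 at 189 ± 67.3 and 222 ± 60.6 (limma adjusted p = 0.184 and 0.222). The spread within NOD was as large as its mean there, and the other 4 probe sets of Usp15 gave log2 differences of -0.81 to 0.11 at 2 weeks and -0.40 to 0.29 at 4 weeks.

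**Figure D2:**
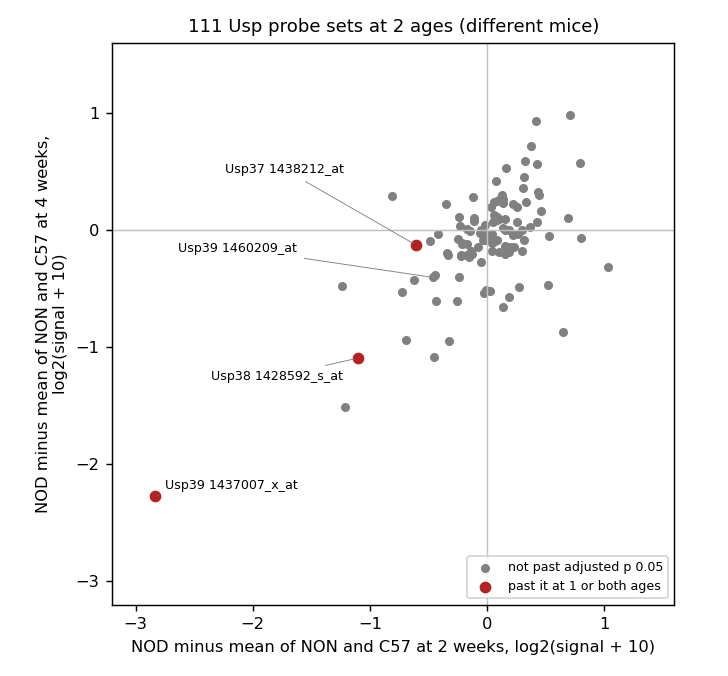
Each point is 1 of the 111 kept Usp probe sets, with its NOD minus control difference on the log2(signal + 10) scale at 2 weeks (x axis) and at 4 weeks (y axis), in red where the strain F-test passed at either age. Most points lie within 0.5 of 0 on both axes, and Usp39 1437007_x_at (-2.84 and -2.27) and Usp38 (-1.10 and -1.09) lie apart at both ages.

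By role, the strain calls fell on splicing (Usp39), signalling and immune (Usp38) and DNA damage and cell cycle (Usp37). The splicing group held Usp39 with Usp4 and Usp15, which work with the same recycling factor Sart3. Of its 9 probe sets, 8 were on the lower side in NOD at 2 weeks and 7 at 4 weeks, beside 16201 and 17194 of all 38293. The medians were -0.44 and -0.38, and only Usp39 1437007_x_at passed the test. These probe sets are of 3 genes, with 5 of Usp15, so they are not separate members. Usp4 1442319_at counts as lower at -0.001 and -0.05. The 14 signalling and immune probe sets (Usp2, Usp11, Usp12, Usp25, Usp34, Usp38 and Usp46) had medians of 0.21 and 0.08. The 23 DNA damage and cell cycle probe sets had medians of -0.01 and -0.12. No strain call was made among the 16 probe sets of the chromatin group (medians 0.04 and -0.04), the 20 of membrane traffic, receptors and organelles (0.08 and -0.12), the 7 of proteasome and ubiquitin recycling (0.14 and 0.08) or the 22 of the other members (0.06 and 0.02). Within the membrane traffic group Usp6nl, the member that is not a protease, had log2 differences of -0.17 to 0.08 at 2 weeks and -0.21 to 0.42 at 4 weeks over its 3 probe sets.

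Some members came close to the threshold in C57 mice, and they are named after their values were seen. Usp36, a nucleolar deubiquitinase, reached 288 ± 62.6 in C57 at 2 weeks on 1455237_at against 134 ± 57.7 for NOD and 142 ± 45.1 for NON, and at 4 weeks 310 ± 93.6 against 126 ± 36.9 and 103 ± 47.5 (limma adjusted p = 0.101 and 0.0547). On its other kept probe set, 1458311_at, C57 had the lowest mean at 2 weeks. The means were 569 ± 150 in NOD, 508 ± 163 in NON and 433 ± 180 in C57 (limma adjusted p = 0.768). Usp53 1458899_at averaged 167 ± 47.8 in C57 mice of 4 weeks, with NOD at 38.6 ± 35.2 and NON at 49.4 ± 62.4 (adjusted p = 0.0704). The NOD and NON means of this probe set were no higher than the highest group mean of Usp9y. The other kept probe sets of Usp53 did not set C57 apart at 4 weeks. Signals were 205 to 566 in C57, 361 to 689 in NOD and 362 to 584 in NON on 1444507_at. On 1452385_at they were 23.5 to 61.2, 3.4 to 105 and 14.7 to 79.4.

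Probe sets of the same gene often lay on different sides of 0. There were 33 genes with at least 2 kept probe sets (97 probe sets), and 14 genes rested on a single one, Usp38 among them. All probe sets of a gene lay on the same side of 0 in NOD minus controls for 12 of the 33 genes at 2 weeks and 15 at 4 weeks. Of the 117 pairs of probe sets, 57 (48.7%) had the same sign at 2 weeks and 68 (58.1%) at 4 weeks, beside 55.1% and 58.3% of the 23191 such pairs of all genes. The median correlation of a pair's deviations from the group means over the 30 mice was 0.13, beside 0.1 over all pairs, and 11 pairs (9.4%) were over 0.5, beside 9.55%. These pairs share mice and arrays, and a pair that lies on 1 array type also shares its scaling.

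In 8 genes all probe sets shared a sign within each age. The same count over all genes is not given here. Of the 33 Usp genes 15 have only 2 kept probe sets, so a shared sign alone is weak evidence. Lower in NOD at both ages were Usp39, Usp4 (-0.001 and -0.44 at 2 weeks, -0.05 and -0.38 at 4 weeks) and Usp30, a mitochondrial deubiquitinase (-0.34 and -1.24, then -0.19 and -0.48). Higher at both ages were Usp2, Usp46 and Usp12, which with Usp46 and Usp1 shares the partner Wdr48. The 3 probe sets of Usp12 gave 0.31 to 0.71 at 2 weeks and 0.36 to 0.98 at 4 weeks, none past the test. The smallest values at both ages were those of 1434483_at, with signals of 141 to 408 over the mice. The others, 1427478_at (3.7 to 153) and 1425805_a_at (6.6 to 300), reached below the signals of Usp9y (18.4 to 114). Usp2 1417168_a_at (5.8 to 83.5) did not rise above those signals. Differences on these dim probe sets are not read as expression. Usp34 and Usp8 lay on the higher side in NOD at 2 weeks and on the lower side at 4 weeks. The widest spread between probe sets was that of Usp39 at both ages (2.37 and 1.87), and Usp15 followed (1.32 and 1.80). The median spread of the 33 genes was 0.49 and 0.47.

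**Figure D3:**
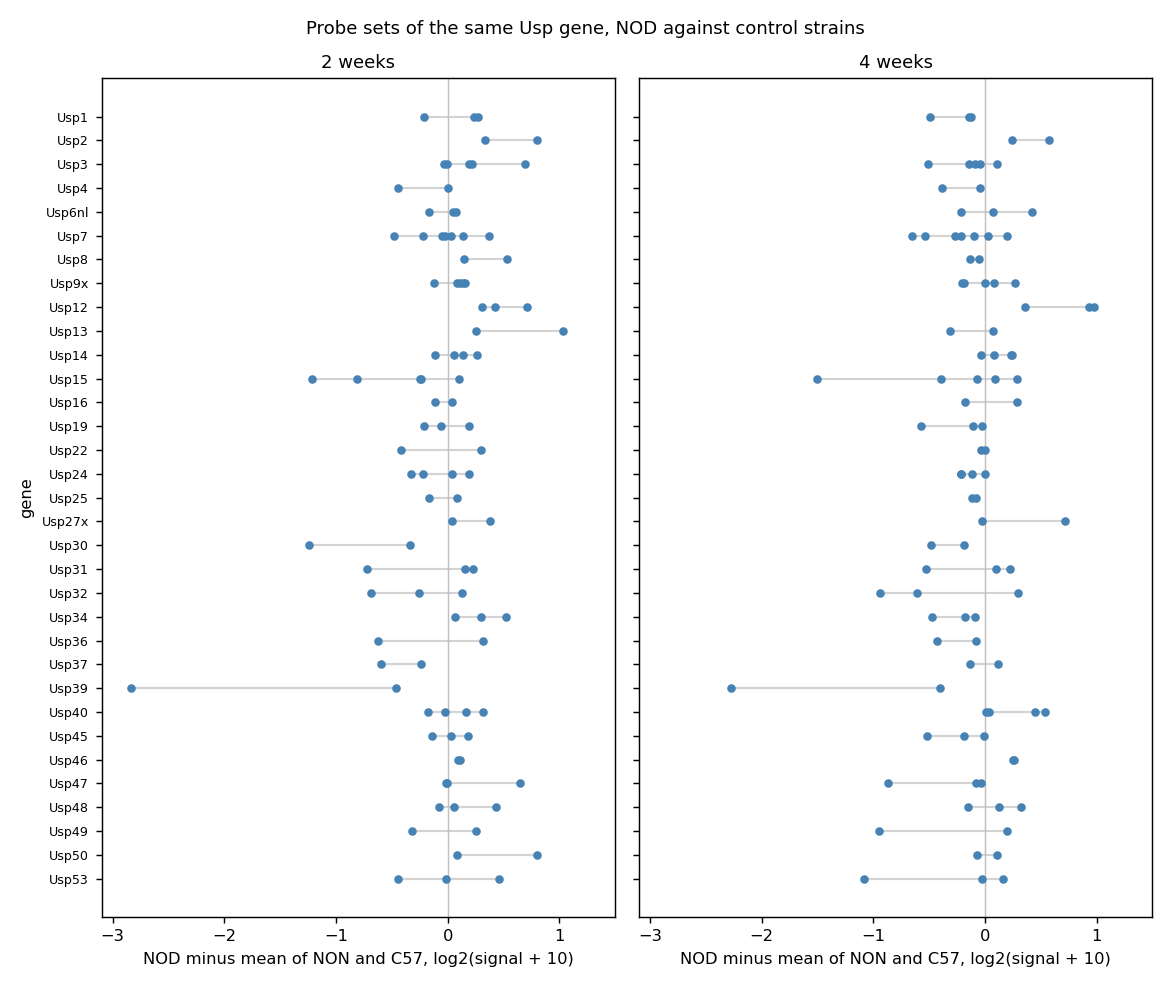
NOD minus control difference (log2(signal + 10) scale) of each kept probe set of the 33 Usp genes with at least 2, in a panel for each age, with a line joining the probe sets of a gene. Most genes span 0, with 12 of 33 on 1 side at 2 weeks and 15 at 4 weeks, and the Usp39 line is the longest.

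The second question was how the family changed between 2 and 4 weeks of age. Usp46, Usp14 and Usp1 were lower at 4 weeks on average over the strains, and no Usp probe set was higher. By limma over all 6 groups, 4 of 111 probe sets fell, against 1.88% of all kept probe sets, and 0 rose, against 1.31% of all. At an unadjusted p under 0.05, 12 were lower and 5 higher, beside 7.02% and 6.56% of all. The median change of the 111 was -0.02 on the log2 scale (range -0.78 to 0.71), beside 0.01 over all, and it was within 0.5 of 0 for 104 of them.

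Usp46, which is activated by Wdr48 and acts on glutamate and GABA signalling in the brain, fell on both of its probe sets. On 1435325_at the NOD mice had 513, 561, 625, 897 and 912 at 2 weeks and 341, 502, 549.5, 564.5 and 606.5 at 4 weeks. The NON mice had 666, 686, 776, 809.6 and 1135 and then 391, 419, 508, 554 and 774, and the C57 mice had 392.5, 452.5, 521, 526 and 608 and then 308, 315, 319, 322 and 454. Each strain's mean was lower at 4 weeks, although single mice overlapped in every strain. The means were 702 ± 190, 814 ± 189 and 500.2 ± 81.6 at 2 weeks against 513 ± 103, 529 ± 152 and 344 ± 62.2 (log2 change -0.53, standard error 0.12, limma adjusted p = 0.0112). On 1436518_at the change was -0.61 (standard error 0.16, adjusted p = 0.0306), with means of 699 ± 193, 813 ± 380 and 543 ± 119 at 2 weeks and 489 ± 132, 472 ± 116 and 363 ± 154 at 4 weeks. The second of these lost its call without any 1 of 8 mice (adjusted p of 0.00976 to 0.0577 over all alternatives), and the first kept it without each mouse. The log2 strain differences of the Usp46 probe sets were 0.03 apart at 2 weeks and 0.01 apart at 4 weeks.

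Usp1, which removes ubiquitin from Pcna and Fancd2, fell on 1451080_at. NOD mice had 915, 1072, 1096, 1163 and 1292 at 2 weeks and 659, 863, 910.0, 963 and 988 at 4 weeks. NON mice had 1104, 1260, 1321, 1594 and 1894 and then 960, 1125, 1152, 1261 and 1264.5, and C57 mice had 1008, 1085, 1103, 1178 and 1437 and then 638, 802, 810.5, 816 and 852. In C57 the ages did not overlap, and in the other strains they overlapped. The log2 change was -0.40 (standard error 0.09, limma adjusted p = 0.0122), and the mean over all mice was 1.32-fold lower at 4 weeks. The other probe sets of Usp1 changed by -0.50 (1423675_at, adjusted p = 0.127) and -0.35 (1423674_at, adjusted p = 0.351), so that all 3 had the same sign.

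Usp14 trims ubiquitin chains on the proteasome. On 1416208_at NOD mice had 210, 223.5, 239, 254 and 378 at 2 weeks and 133, 165, 170, 248 and 267 at 4 weeks. NON mice had 231, 257.5, 283, 357 and 377.5 and then 86.6, 196, 211.5, 216 and 231, and C57 mice had 225, 231, 235, 308.5 and 309 and then 124, 151, 160, 228 and 283. The log2 change was -0.53 (standard error 0.15, limma adjusted p = 0.0395), with single mice overlapping in every strain. The 3 other probe sets of Usp14 changed by -0.06 to 0.08 (adjusted p of at least 0.837), so the fall was seen on 1 of 4. It did not pass when any 1 of 15 mice was left out (adjusted p of 0.0192 to 0.0721 over all alternatives).

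**Figure D4:**
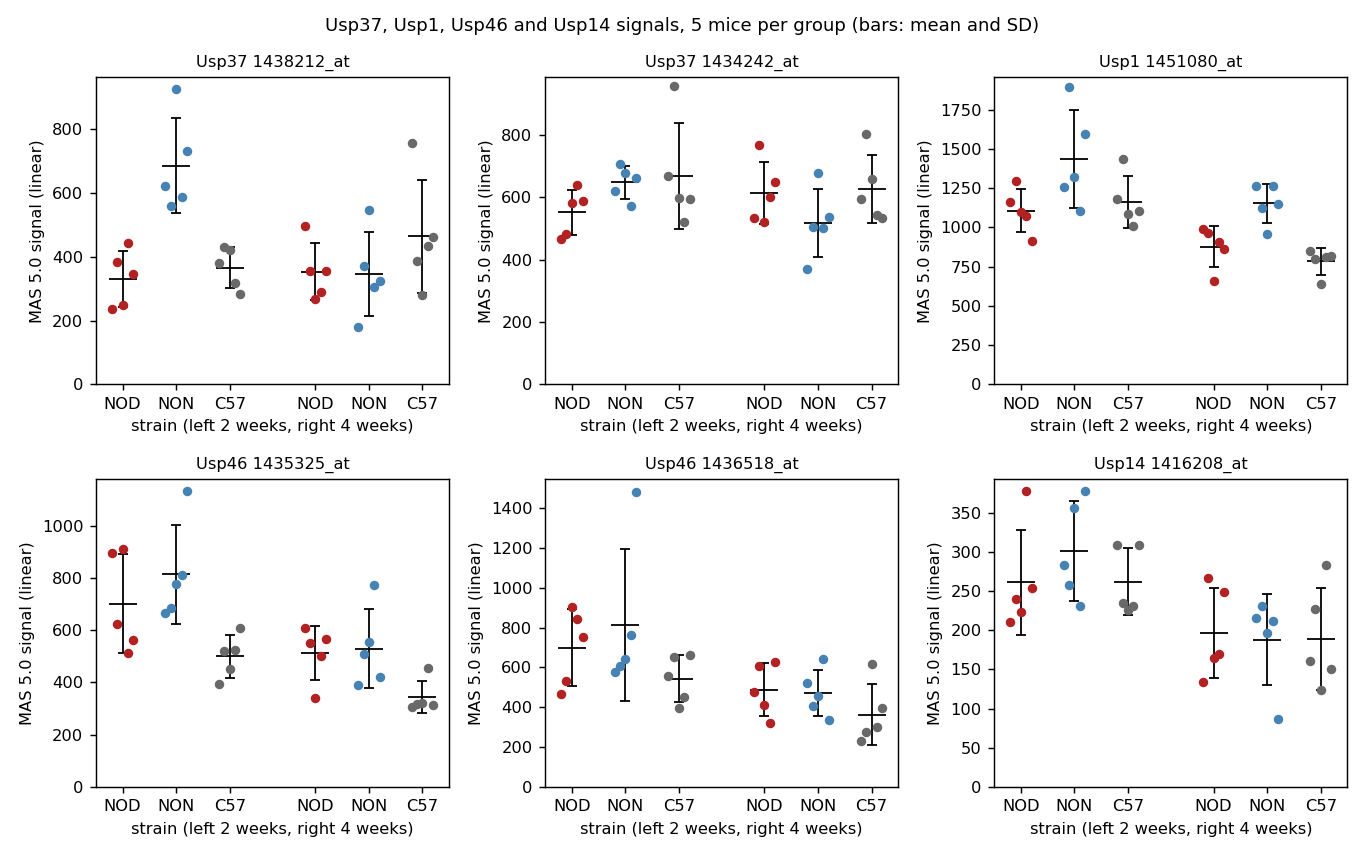
Signals of each mouse (linear MAS 5.0 scale, from 0) for Usp37, Usp1, Usp46 and Usp14 probe sets, by strain at 2 weeks (left) and 4 weeks (right), with the mean and SD of 5 mice. The 4 weeks groups of Usp1 1451080_at and both Usp46 probe sets have lower means in every strain, and NON mice stand above the others on Usp37 1438212_at at 2 weeks.

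Within single strains few changes passed. In NON mice Usp37 1438212_at fell from 685 ± 149 to 345 ± 132 (log2 change -1.03, standard error 0.26, limma adjusted p = 0.0416), with 5 NON mice at 558 to 926 at 2 weeks and 180, 306, 325, 370 and 546 at 4 weeks and no overlap. With the Gapdh ratio as a covariate the adjusted p was 0.0642 (0.0181 to 0.138 over all alternatives). It was the 1 call of 111 in NON, against 1.46% of all. In the same fit the change was 0.10 in NOD (adjusted p = 0.953) and 0.27 in C57 (adjusted p = 0.956), and the test of strain by age did not pass (unadjusted p = 0.0028, adjusted p = 0.59). In NOD and C57, 0 of 111 passed, against 0.146% and 0.46% of all, with 1 higher and 7 lower in NOD and 1 higher and 6 lower in C57 at an unadjusted p under 0.05. Over all kept probe sets these unadjusted shares were 4% and 4.9% in NOD and 3.09% and 3.6% in C57. The methods' t-test at an unadjusted p under 0.001 called 0 of the 111 in NOD, 0 in NON and 1 in C57. Over all kept probe sets it called 114, 335 and 227. That one was Usp34 1434393_at, named after its values were seen, with 112 ± 10.4 at 2 weeks and 192 ± 32.7 at 4 weeks, and limma's adjusted p for it was 0.911. The interaction of strain and age called 0 of 111, against 0.00261% of all. At an unadjusted p under 0.05 there were 4, beside 6.9% of all.

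**Figure D5:**
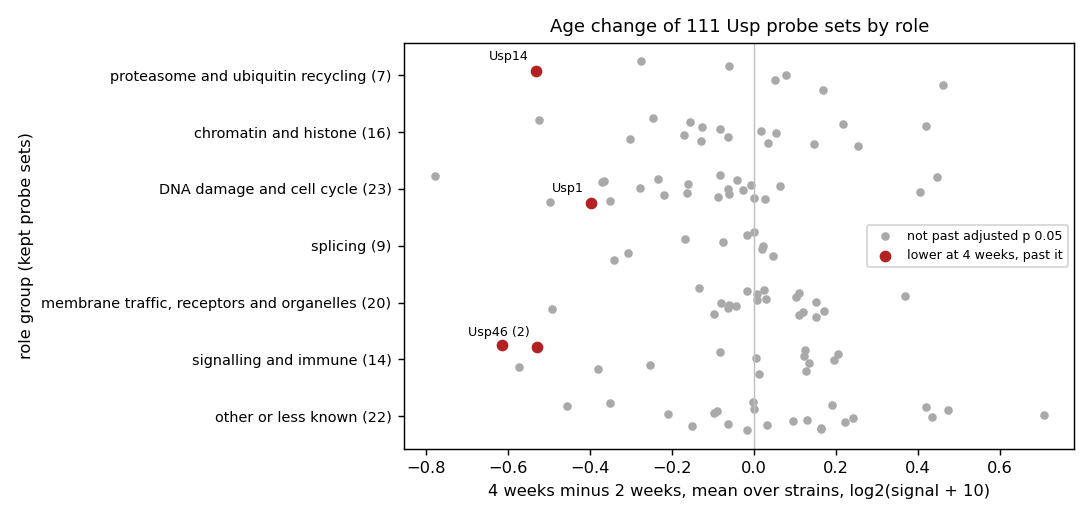
Change from 2 to 4 weeks, averaged over the strains, of each of the 111 Usp probe sets (x axis, log2(signal + 10) scale) by role group, with the number of probe sets of each group in brackets and the called ones in red. The 4 called probe sets, of Usp14, Usp1 and Usp46 (2), lie between -0.61 and -0.40, and no called probe set lies above 0.

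Cell markers moved with age too. All 9 measured cycling cell genes fell (median log2 change -0.89), and their summed signal went from 9890 to 16800 to 4700 to 13400 in NOD, from 17800 to 25700 to 8050 to 13500 in NON and from 8190 to 15700 to 4640 to 8710 in C57. All 7 measured T cell genes and all 5 NK cell genes rose (medians 0.91 and 0.62), 2 of 8 myeloid genes and 2 of 5 megakaryocyte genes fell, and 0 of 5 B cell genes passed by limma. The part of these shifts in the fall of Usp46, Usp1, Usp14 and Usp37 was not tested. In the DNA damage and cell cycle group, 5 of the 23 Usp probe sets had a change above 0, beside 53 of the 111 and 19823 of all 38293. The median of the 23 was -0.09, with 1 call (1.88% of all were lower). These 23 are of 8 genes, so they are not separate members. The 7 probe sets of Usp7, which controls p53 through Mdm2, ran from -0.78 to 0.45, and none passed.

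Genes outside the member rule came from lists of deubiquitinases and related genes, of Usp partners and of activating enzymes for ubiquitin and similar proteins. Of the other deubiquitinases and related genes, 34 genes with 75 kept probe sets were measured. Strain calls were made on 2 of the 75 at 2 weeks (1.66% of all) and 1 at 4 weeks (1.51% of all). Otud1 1453119_at averaged 816 ± 173 in C57 mice of 2 weeks, with NOD at 368 ± 57.2 and NON at 449 ± 155 (limma adjusted p = 0.0499) and at 4 weeks 894 ± 196, with NOD at 318 ± 24.2 and NON at 614 ± 122 (adjusted p = 0.00188), where NOD was the odd strain on the low side. Uchl1, a neuronal hydrolase, was at 86.4 ± 11.5 in C57 against 42 ± 15.8 and 44.4 ± 6.19 at 2 weeks (adjusted p = 0.0356), where the NOD and NON means lay at the level of Usp9y. At 4 weeks C57 had the lowest Uchl1 mean, 40.4 ± 14.2, with NOD at 66.9 ± 57.8 and NON at 42.6 ± 16.3 (adjusted p = 0.785). NOD replicate 3 had 169 there, and the other NOD mice had 30.4 to 52.2. With age, 2 of the 75 fell (1.88% of all) and 0 rose (1.31% of all). At an unadjusted p under 0.05 there were 11 in either direction, against 5201 of all 38293. Uchl5, which binds the proteasome as Usp14 does, changed by -0.54 on the log2 scale (standard error 0.12, adjusted p = 0.0104), and Stambpl1, which cuts K63-linked chains, by -0.42 (standard error 0.12, adjusted p = 0.0435). Psmd14, the deubiquitinase of the proteasome lid, had a change of -0.16 (adjusted p = 0.46). The median strain differences of the 75 were -0.03 and -0.12, and the median age change was -0.05.

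Vcpip1, a deubiquitinase of Golgi assembly, was the 1 gene of these lists with a call between probe sets, on 1434706_at at 2 weeks (adjusted p = 0.025). Its 1459849_x_at fell in NON with age (log2 change -1.91, adjusted p = 0.0382), at signals of 52.2 ± 18.3 and 7.04 ± 7.79. These means are no higher than the highest group mean of Usp9y. The 26 partner genes (72 probe sets) included Wdr48, Gmps, Sart3 and proteasome subunits. They had no strain call at either age and no age call over the strains by limma. At an unadjusted p under 0.05 there were 10 and 8 strain results, against 5402 and 5122 of all 38293 kept probe sets. There were also 10 age results, against 5201 of all. In NON mice 2 of the 72 fell with age, against 249 of all. They were Psmd2, a proteasome subunit, on 1415831_at (1660 ± 116 to 978 ± 138, log2 change -0.76, adjusted p = 0.00715), and Gmps, which binds Usp7, on 1433567_at (4040 ± 446 to 2370 ± 392, log2 change -0.78, adjusted p = 0.0424). The second probe set of Psmd2 had a change of -0.28 in NON (adjusted p = 0.84), and the other probe sets of Gmps had 0.30 (1455057_at, adjusted p = 0.806) and -0.13 (1435656_at, adjusted p = 0.937). Of the activating enzymes and ubiquitin precursors, Uba3, Uba6 and Uba7 were measured under a single symbol (11 probe sets). Uba7, the activating enzyme for Isg15, rose with age on 1426971_at (log2 change 0.46, standard error 0.12, adjusted p = 0.0236). No strain call was made among the 11, with 2 and 0 at an unadjusted p under 0.05, against 5402 and 5122 of all.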

How the data were processed

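RNA of spleen leukocytes from 30 mice was measured on a 430A (22690 probe sets) and a 430B array (22575) each. The authors deposited MAS 5.0 signals (named MAS5 in the submitters' processing notes), a linear intensity scaled globally per array. The methods name a target of 100, while a 2% trimmed mean gives 250 for each deposited array. Present and marginal calls were not used here. Both arrays of a mouse were joined (45037 probe sets, 100 shared ones taken from 430A, 64 control sets per array left out). In all 30 mice, the shared probe sets matched the arrays of the same number best.

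Probe sets with a signal of at least 50 in at least 5 mice were kept (38293), and log2(signal + 10) was fitted with limma 3.58.1 in R 4.3.3, a stand-in for the methods' one-way ANOVA. Benjamini-Hochberg adjustment ran over all kept probe sets, or over the 20968 of genes with at least 2 for the comparison of probe sets. Scripts were tested on simulated data. Fold differences are ratios of mean signals. Of 45037 probe sets, 34945 had 1 symbol, 932 several and 9160 none. Members, gene lists and tests were chosen with earlier results of these data known. Named are Usp genes past an adjusted p of 0.05, Usp9y, Usp6nl and called genes of the other lists, the rest being named by exception. Whether mice shared litters is not given, so p-values measure the spread between these mice. The number of arrays limits the precision. Alternatives covered the pseudocount, filter, scaling, covariate, probe set types, tests, replicate block and leaving out each mouse.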

Additional observations from a re-analysis of the deposited data

Results flagged for a closer look

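Among the 43 named probe sets, each of the 258 groups of 5 mice was searched for a mouse whose gap to its nearest neighbour took more than 0.71 of the whole range of the group on the log2 scale. There were 19 such flags, with some mice flagged on more than 1 probe set, and chance flags about 1 group in 20. NOD replicate 3 of 4 weeks, the mouse with the low correlation to its group, was the highest on Usp39 1437007_x_at at 242 against 110 to 126 (0.829 of the range), and it was still below every control mouse. The same mouse was high on Uchl1 1448260_at (169 against 30.4 to 52.2, 0.71) and low on Usp15 1447881_x_at (24.5 against 402 to 501, 0.92). C57 replicate 1 of 2 weeks was low on Usp38 1428592_s_at (175 against 218 to 237, 0.721).

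Of the genes that fell with age, Usp1 1451080_at had C57 replicate 3 of 4 weeks low (638 against 802 to 852, 0.788), and Usp14 1416208_at had NON replicate 5 of 4 weeks low (86.6 against 196 to 231, 0.829). Usp46 1435325_at had C57 replicate 4 of 4 weeks high (454 against 308 to 322, 0.884).

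In Usp36 1458311_at the lowest mouse stood apart in 3 groups: NOD replicate 2 of 2 weeks (303 against 613 to 663, 0.9), NON replicate 2 of 2 weeks (233 against 506 to 637, 0.769) and NOD replicate 5 of 4 weeks (392 against 556 to 584, 0.877). In Usp15, NOD replicate 2 of 4 weeks was high on 1442307_at (246 against 22.3 to 31.4, 0.88), NON replicate 3 of 4 weeks was low on 1447881_x_at (330 against 460.2 to 501, 0.798), and NOD replicate 1 of 4 weeks was high on 1454036_a_at (562 against 301 to 357, 0.727). Usp12 had C57 replicate 5 of 2 weeks low on 1427478_at (7.3 against 40.8 to 60.9, 0.764) and C57 replicate 4 of 2 weeks low on 1434483_at (141 against 229 to 278, 0.714).

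The remaining ones were Usp34 1444437_at in C57 replicate 3 of 4 weeks (6.1 against 92 to 155, 0.793), Usp53 1458899_at in NON replicate 2 of 4 weeks (161 against 13.4 to 26.5, 0.776), Usp6nl 1445161_at in NOD replicate 1 of 2 weeks (502 against 772 to 908, 0.725) and Vcpip1 1459849_x_at in C57 replicate 2 of 4 weeks (3.5 against 36.1 to 57.2, 0.765).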

How the results depend on the processing

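Usp39 1437007_x_at passed the strain test at both ages under each of the 40 alternatives run on it (log2 difference -2.94 to -2.48 at 2 weeks, -2.47 to -2.0 at 4 weeks). Usp38 passed under 40 of 40 at 2 weeks and 34 of 40 at 4 weeks, Usp37 under 28 of 40 at 2 weeks, and in NON with age under 28 of 38 (adjusted p up to 0.138). With age, Usp1 and Usp46 1435325_at passed under 38 of 38, Usp46 1436518_at under 30 and Usp14 under 22. No value changed sign. The count of Usp strain calls at 4 weeks was 4 with a pseudocount of 50 or with all 6 groups in 1 fit (Usp36 and Usp53 added), 1 with the Gapdh covariate, the replicate block or an adjusted p under 0.005, and 0 without _x_at and _s_at probe sets, which left 1 at 2 weeks. The age count in NON was 0 under the replicate block, under the methods' t-test both before and after adjustment, and with the 10 NON mice alone; in C57 it was 1 under the t-test at p under 0.001. With the brightest probe set per gene, 2 fell with age (Usp1 and Usp46). Over all probe sets, strain calls numbered 635 and 578, against 993 and 960 with all 6 groups in 1 fit and 472 and 367 with the replicate block. The cause of these shifts was not tested.

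Leaving out each mouse gave 2 to 3 strain calls at 2 weeks, 1 to 4 at 4 weeks, 2 to 5 falls with age, 0 to 2 calls in NON, and 2 to 4 and 0 to 2 calls between probe sets. Strain calls at 4 weeks were 4 without NOD replicate 2 of 4 weeks (Usp15 and Usp53 added) and 1 without NOD replicate 1, 4 or 5 or C57 replicate 2 of that age (Usp38 lost). Calls between probe sets at 4 weeks were 2 without NOD replicate 2 (Usp15, Usp53) or replicate 3 (Usp53), and 4 at 2 weeks without NON replicate 2 (Usp36 added). Falls with age were 2 without NOD replicate 4 or C57 replicate 2 or 5 of 2 weeks, or without NOD replicate 4, NON replicate 5 or C57 replicate 1 of 4 weeks. The NON call was lost without any mouse of that strain except replicate 2 of 2 weeks (2 calls, Usp5 added) and replicate 3 of 4 weeks.

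No label ties same-numbered mice of different groups together, and 8 of their 75 pairs had deviations correlated above 0.1 (median 0.0371), beside 10 of 300 pairs with different numbers (median -0.00921). With the replicate block the limma adjusted p was 0.104 for Usp37 at 2 weeks and 0.0534 for Usp38 at 4 weeks. It was 0.0542 for Usp14 and 0.0645 for Usp37 in NON, and no other call on a named Usp gene changed. The alternatives were not examined for named genes of the other lists. Probe sets near a signal of 50 have little range above background.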
